A study of Mus musculus with 24 samples.

Results

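The genes described are 10 members of the interleukin-1 (IL-1) family that epithelial cells are known to make or to answer to. They are the ligands Il1a, Il1b, Il18, Il33 and Il36g, the antagonists Il1rn and Il1f5, the decoy receptor Il1r2, the receptor Il1rl1 and the co-receptor Il1rap. They were picked by name, 10 of the 53465 genes in the count table, at a time when earlier results of these data were known. Il36g is listed in the annotation under its older name Il1f9. The RNA came from 24 BURP tumors, which are transplanted mouse bladder tumors, with 3 tumors from each of 8 lines. C57BL/6NTac mice of both sexes drank water with 0.1% of the bladder carcinogen BBN from 8 weeks of age for up to 36 weeks, and the bladder tumors that formed were then passed under the skin of C57BL/6NTac hosts of the same sex. There were 6 basal/squamous (Ba/Sq) lines. Male donors gave BURP-12BaSq, BURP-17BaSq and also BURP-18BaSq, and female donors gave BURP-21BaSq, BURP-24BaSq and also BURP-25BaSq. BURP-16SR, the stroma-rich line, and BURP-19NE, the neuroendocrine-like line, both came from male mice. Each line descends from the tumor of 1 donor mouse, so the tumors of a line are repeats of 1 cancer. Since BURP-16SR and BURP-19NE are 1 line each, subtype and line cannot be told apart for them. The hosts were immunocompetent, and the RNA of a tumor therefore includes host stroma and leukocytes.

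Ligands of the IL-1 family are inflammatory signals. IL-1α and IL-33 sit preformed in epithelial cells and are set free when a cell is damaged, IL-1β and IL-18 must be cut by caspase-1 before they act, and IL-36γ is made by keratinocytes and other barrier epithelia. IL-1, IL-33 and IL-36 each bind a receptor of their own that then pairs with the shared chain encoded by Il1rap, and the pair signals through MyD88 and IRAK kinases to NF-κB. The receptor for IL-33, ST2, is encoded by Il1rl1, while the product of Il1rn blocks the IL-1 receptor, that of Il1f5 blocks the IL-36 receptor, and that of Il1r2 binds IL-1 without signalling.

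Of the 10 genes, 5 lie on chromosome 2, and these were all lower in BURP-19NE than in the Ba/Sq tumors. Their promoters are shown for that reason, as the 250 bases before the RefSeq start site on GRCm38.p6, 5′ to 3′ along the strand of the gene. Il36g (chr2:24186226-24186475), Il1f5 (chr2:24276704-24276953) and Il1rn (chr2:24336610-24336859) are on the plus strand and follow each other closely. Il1a (chr2:129309973-129310222) and Il1b (chr2:129371140-129371389) are neighbours on the minus strand, far from the first group. Capitals mark matches to a κB motif (GGG and CC separated by any 5 bases), an AP-1 motif (TGANTCA), a C/EBP motif (TTGCNNAA) or a TATA box (TATAAA), searched on both strands.
Il36g: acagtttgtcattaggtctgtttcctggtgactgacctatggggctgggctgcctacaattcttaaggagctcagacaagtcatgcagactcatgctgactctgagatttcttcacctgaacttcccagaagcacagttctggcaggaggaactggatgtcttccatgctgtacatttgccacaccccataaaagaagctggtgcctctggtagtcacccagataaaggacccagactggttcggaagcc
Il1f5: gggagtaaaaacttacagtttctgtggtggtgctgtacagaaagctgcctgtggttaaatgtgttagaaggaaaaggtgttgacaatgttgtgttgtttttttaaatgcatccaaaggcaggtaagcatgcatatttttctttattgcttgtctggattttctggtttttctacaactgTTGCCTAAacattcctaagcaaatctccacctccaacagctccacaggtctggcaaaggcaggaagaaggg
Il1rn: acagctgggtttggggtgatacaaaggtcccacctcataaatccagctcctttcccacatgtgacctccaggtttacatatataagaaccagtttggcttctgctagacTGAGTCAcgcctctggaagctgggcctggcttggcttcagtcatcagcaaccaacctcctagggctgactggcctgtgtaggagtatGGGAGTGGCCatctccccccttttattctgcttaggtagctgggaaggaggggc
Il1a: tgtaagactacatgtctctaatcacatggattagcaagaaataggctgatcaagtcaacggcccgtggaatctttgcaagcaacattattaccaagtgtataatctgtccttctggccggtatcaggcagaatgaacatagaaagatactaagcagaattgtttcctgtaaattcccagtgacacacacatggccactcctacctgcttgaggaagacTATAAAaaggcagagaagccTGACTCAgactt
Il1b: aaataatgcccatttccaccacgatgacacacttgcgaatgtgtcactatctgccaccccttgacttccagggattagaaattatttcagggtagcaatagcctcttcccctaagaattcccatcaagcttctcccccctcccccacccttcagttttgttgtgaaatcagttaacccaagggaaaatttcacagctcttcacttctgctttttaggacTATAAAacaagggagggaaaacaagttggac
In these promoters Il1a held a TATA box from 32 to 27 bases and an AP-1 motif from 12 to 6 bases before its start, and Il1b held a TATA box from 31 to 26 bases before its start. Il1rn held an AP-1 motif from 141 to 135 bases and a κB motif from 54 to 45 bases before its start. The only match in Il1f5 was a C/EBP motif from 71 to 64 bases before its start, and the 250 bases of Il36g held none of these letters. Over all 10 genes, κB was matched in 2 (Il1rn and Il1rap), AP-1 in 2 (Il1a and Il1rn), C/EBP in 2 (Il1rl1 and Il1f5) and TATAAA in 4 (Il1a, Il1b, Il18 and Il33). The same letters occurred in 45.8%, 6.75%, 9.56% and 12.4% of the 32851 RefSeq promoters of that length. A match is a run of letters, and binding was not measured. Of the other 5 genes, Il1r2 (chr1:40074079-40125231) and Il1rl1 (chr1:40429570-40465415) are neighbours on the plus strand of chromosome 1. Il18 (chr9:50554827-50581840), Il33 (chr19:29925114-29960718) and Il1rap (chr16:26581704-26730117) are on the plus strand too.

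Levels are given as CPM, counts scaled to the size of the library after TMM normalisation. Total counts ranged from 9295708 to 25370320 per tumor with a median of 17693147, and a floor of 3 counts corresponded to between 0.106 and 1.34 CPM, a limit that covers counting error only. Both doubtful libraries belong to BURP-25BaSq. In C102-M30, the ribosomal RNA gene CT010467.1 took 61.9% of the counts, which gave this tumor the highest floor. The library labelled C102-M1 had a mean Pearson's r of 0.968 across genes with the 3 BURP-21BaSq tumors and of 0.892 with the other 2 tumors of its own line. Both were kept as labelled, and results that rest on them are given with and without them. The summed level of 8 basal and squamous markers, led by Krt5, Krt14 and Krt6a, lay between 8927 and 22873 CPM in the 18 Ba/Sq tumors, between 4.41 and 7.21 CPM in BURP-16SR and between 1.77 and 2.86 CPM in BURP-19NE. The uroplakin genes Upk2 and Upk3a of mature urothelium were at 0 counts in all tumors of BURP-16SR and BURP-19NE, and Upk3a was at 0 in 13 of the 18 Ba/Sq tumors. The sum of all 8 urothelial markers was 56.9 to 118 CPM in BURP-16SR and 158 to 191 CPM in BURP-19NE. Both lay within the Ba/Sq range of 30.7 to 405 CPM. In whole tumors, fewer cells of a type and less RNA per cell cannot be told apart.

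**Figure D1:**
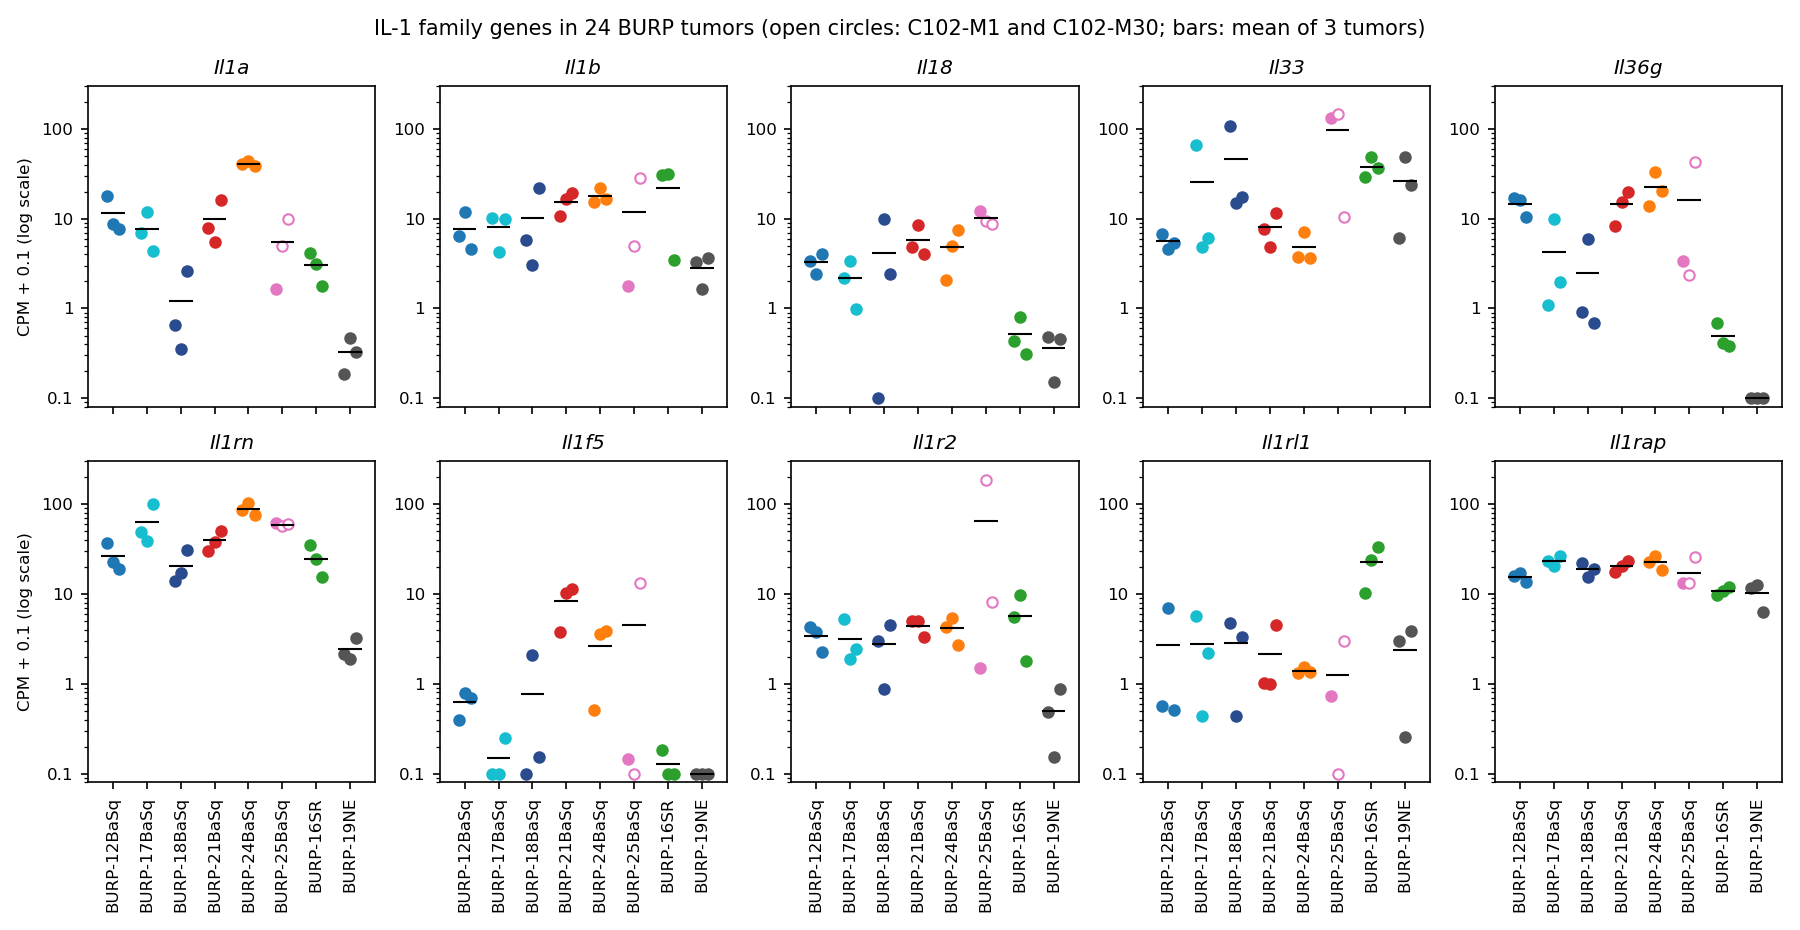
Level of each of the 10 genes in every tumor, as CPM plus 0.1 on a log scale, by line, with each point 1 tumor, the bar the mean of 3 tumors and open circles the libraries C102-M1 and C102-M30. The 3 BURP-24BaSq tumors stand above all others for Il1a at 38.2 to 44.3 CPM, the 3 BURP-16SR tumors above all others for Il1rl1 at 10.1 to 33.1 CPM, and Il36g is at 0 in the 3 BURP-19NE tumors.

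Il1a, which encodes IL-1α, stood apart in 1 line. Its 3 values in BURP-24BaSq were 40.4, 44.3 and 38.2 CPM. The next line, BURP-12BaSq, had 17.97, 8.62 and 7.51 CPM, so that every BURP-24BaSq tumor exceeded every tumor of the other 7 lines. BURP-21BaSq had 7.80, 5.45 and 16.004 CPM. BURP-17BaSq had 6.90, 11.7 and 4.29 CPM, and BURP-25BaSq had 1.56 (C102-M3), 4.92 (C102-M30) and 9.73 CPM (C102-M1). These 4 lines followed BURP-24BaSq in an order in which each overlapped the next. Below them came BURP-16SR with 4.07, 3.02 and 1.68 CPM. BURP-18BaSq, with 0.549, 0.257 and 2.51 CPM from 4, 3 and 47 counts, was the low line among the Ba/Sq lines. It overlapped BURP-19NE, which had 0.0842, 0.369 and 0.227 CPM from 2 to 7 counts. In 19 of the 24 tumors the count of Il1a was not whole (to within 1e-9), as it shares reads with other genes, and Gm14023 overlaps it on the opposite strand.

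Il1b, which encodes IL-1β, had its highest and some of its lowest values in the same line. In BURP-16SR it was at 30.3 CPM in C73-M10, 31.2 CPM in C74-MNT and 3.36 CPM in P5. Among the Ba/Sq lines it was most even in BURP-24BaSq, at 15.1, 22.1 and 16.5 CPM, and in BURP-21BaSq, at 10.6, 16.5 and 19.0 CPM. In BURP-25BaSq it was at 1.69, 4.92 and 28.3 CPM, the last in C102-M1, and without that library this line had a mean of 3.31 CPM. BURP-18BaSq had 5.63, 2.92 and 21.6 CPM. BURP-17BaSq had 10.1, 4.12 and 9.71 CPM, BURP-12BaSq had 6.34, 11.7 and 4.44 CPM and BURP-19NE had 3.20, 1.53 and 3.54 CPM. Only BURP-12BaSq and BURP-19NE were neighbours in the order of means without overlap.

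Il18, which encodes the other ligand that caspase-1 cuts, was higher in most Ba/Sq tumors than in BURP-16SR and BURP-19NE. It ranged from 8.72 to 11.97 CPM in BURP-25BaSq, the line with the highest mean (10.03 ± 1.72 CPM, SD, n = 3), and all 3 tumors lay above those of the next line, BURP-21BaSq, at 3.97 to 8.51 CPM. The other Ba/Sq lines lay between 0.888 and 9.78 CPM except for BURP-18BaSq C148-M3, with 0 counts. BURP-16SR had 0.339, 0.697 and 0.210 CPM and BURP-19NE had 0.379, 0.0527 and 0.363 CPM, from 1 to 9 counts, and these lines overlapped each other. Bco2 and Tex12 overlap Il18 on the opposite strand.

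Il33, the gene of the alarmin IL-33, differed widely between tumors of the same line. In BURP-25BaSq it was at 133 CPM in C102-M3 and 146 CPM in C102-M30 but at 10.3 CPM in C102-M1. In BURP-18BaSq it was at 106 CPM in C148-M3 and at 14.8 and 17.3 CPM in the others, and in BURP-17BaSq at 66.5 CPM in C152-M1 and at 4.79 and 5.92 CPM in the others. BURP-12BaSq (4.50 to 6.71 CPM), BURP-24BaSq (3.51 to 6.996 CPM) and BURP-21BaSq (4.79 to 11.6 CPM) were low in every tumor. BURP-16SR had 29.2, 48.6 and 36.1 CPM, and BURP-19NE had 6.02, 48.3 and 23.4 CPM. Each line in the order of means overlapped the next.

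Il36g, which encodes IL-36γ, was lowest in BURP-19NE and BURP-16SR. It was at 0 counts in all 3 BURP-19NE tumors, and in BURP-16SR at 0.593, 0.310 and 0.280 CPM from 4 to 7 counts. In the Ba/Sq tumors it ranged from 0.588 to 42.2 CPM with a median of 9.996 CPM. The lowest, BURP-18BaSq P4, lay within the range of BURP-16SR. Within the Ba/Sq lines, BURP-24BaSq (13.8, 33.2 and 20.3 CPM), BURP-12BaSq (16.97, 15.9 and 10.2 CPM) and BURP-21BaSq (8.26, 15.1 and 19.7 CPM) were high in every tumor. BURP-17BaSq (0.996, 9.74 and 1.87 CPM) and BURP-18BaSq (0.824, 5.83 and 0.588 CPM) were low with 1 higher tumor each. In BURP-25BaSq the library C102-M1 had the highest value of all, 42.2 CPM, and the other tumors had 3.25 and 2.24 CPM.

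Il1rn, the gene of the IL-1 receptor antagonist, had the highest median level per kilobase of exon over the 18 Ba/Sq tumors, an order that differed by line and by summary. Length was taken over all annotated exons of a gene together, which can exceed that of a single transcript. The median was 7.99 CPM per kilobase of exon for Il1rn, 6.07 for Il36g, 5.44 for Il1b, 3.88 for Il1a, 3.82 for Il18, 2.52 for Il33, 2.05 for Il1r2, 1.72 for Il1rap, 0.179 for Il1rl1 and 0.111 for Il1f5. By the mean, Il33 came first (10.8 against 8.92 CPM per kilobase for Il1rn), and in BURP-24BaSq the mean of Il1a was 20.7 against 16.04. In CPM, Il1rn was at 86.7, 104 and 75.4 in BURP-24BaSq. BURP-17BaSq had 49.4 and 39.0 CPM and, in P4, 99.0 CPM, and BURP-25BaSq was even at 61.3, 56.4 and 59.4 CPM in all 3 libraries, the doubtful ones included. BURP-25BaSq and the next line, BURP-21BaSq (30.1 to 50.2 CPM), did not overlap. BURP-12BaSq (19.1 to 37.1 CPM), BURP-16SR (15.2 to 34.6 CPM) and BURP-18BaSq (14.0 to 30.5 CPM) overlapped each other. BURP-19NE, with 2.06, 1.79 and 3.13 CPM, lay below all other tumors.

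Il1f5, the gene of the IL-36 receptor antagonist, was a gene of few tumors. BURP-21BaSq had 3.67, 10.1 and 11.1 CPM, and C102-M1 of BURP-25BaSq had 13.3 CPM, while the other 2 tumors of that line had 0.0445 CPM and 0 counts. BURP-24BaSq had 0.408, 3.44 and 3.76 CPM. All other Ba/Sq tumors were at or below 0.680 CPM except BURP-18BaSq C149-M3 at 1.97 CPM. BURP-16SR had 1 count in 3 tumors and BURP-19NE had none.

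Il1r2, the gene of the decoy receptor for IL-1, was between 0.772 and 8.10 CPM in 17 of the 18 Ba/Sq tumors and at 185 CPM in C102-M30. BURP-16SR had 5.43, 9.68 and 1.68 CPM. BURP-19NE had 0.379, 0.0527 and 0.772 CPM, from 1 to 17 counts, which was as low as or lower than any other tumor. Il1rl1, the gene of the IL-33 receptor, was at 10.1, 23.9 and 33.1 CPM in BURP-16SR, above every other tumor. Elsewhere it was at most 6.84 CPM and at 0 counts in C102-M30, and the 7 other lines overlapped. Il1rap, the gene of the shared co-receptor, varied least of the 10, from 12.98 to 26.6 CPM in the Ba/Sq tumors. BURP-16SR (9.75, 10.7 and 11.8 CPM) and BURP-19NE (11.4, 12.6 and 6.22 CPM) lay below all Ba/Sq tumors and overlapped each other. In 17 of the 24 tumors the count of Il1rap was not whole, and Gm20319 overlaps it on the opposite strand. Il1bos overlaps Il1b and Gm16894 overlaps Il1r2, both on the opposite strand, and Gm37347 overlaps Il1r2 on its own strand. The strand setting of the counting is not given in the sources used here.

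The first comparison asked how the neuroendocrine-like line differed from the Ba/Sq lines. In BURP-19NE, 4 ligands (Il1a, Il1b, Il18 and Il36g) and both antagonists (Il1rn and Il1f5) were lower than in the 18 Ba/Sq tumors. A gene was called at a Benjamini-Hochberg adjusted p under 0.05 over all genes tested, by edgeR's quasi-likelihood test, and a fold change above 2. By this rule 6 of the 10 genes were called, all of them lower. Of the 20995 genes tested, 24.3% were called, 3150 of them lower. Il1rn fell by 4.38 on the log2 scale (SE 0.67, adjusted p = 4.04e-05), with no overlap between the groups. Il1a fell by 5.79 (SE 1.48, adjusted p = 0.00469), and only BURP-18BaSq C149-M3, at 0.257 CPM, was within the range of BURP-19NE. Il18 fell by 4.14 (SE 1.04, adjusted p = 0.00426) and Il1b by 2.08 (SE 0.72, adjusted p = 0.0300). Il36g, with no count in BURP-19NE, was at least 77.6-fold lower (adjusted p = 0.00072), against a floor of 3 counts per library. For Il1f5, also without a count there, the bound was at least 17.4-fold lower (adjusted p = 0.0388). That bound is set against the Ba/Sq mean of 2.75 CPM, which few tumors carry. The 3 BURP-17BaSq tumors, at 0, 0 and 0.148 CPM, were below the floor of 0.158 CPM themselves.

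The receptors behaved less uniformly. Il1rap was 0.95 lower on the log2 scale (SE 0.25, adjusted p = 0.00591), less than the 2-fold required, and all tumors of the groups were apart. Il1r2 differed by -4.96 (SE 1.94, adjusted p = 0.0529) as labelled. Without C102-M30 and C102-M1 it differed by -3.02 and was called (adjusted p = 0.00161). Il33 and Il1rl1 did not pass the test. The median log2 difference of the 10 genes was -4.26, or -4.13 with Il36g and Il1f5 at their bounds, and the median of all genes tested was -0.14. Leaving out 1 BURP-19NE tumor left 5, 5 or 4 genes called, and Il1b and Il1f5 were lost whichever of the 3 it was. The call of Il1f5 was also lost without the line BURP-21BaSq or BURP-24BaSq. With a random effect of the line in limma-voom, only Il1rn was called, and the estimated correlation between tumors of a line was 0.496. Markers of other cells moved with this comparison: the sum of 10 suprabasal keratinocyte markers, led by Krt13, Krt4 and Flg, was between 8.12 and 11.4 CPM in BURP-19NE against 166 to 9897 CPM in Ba/Sq tumors, and the sum of 8 neutrophil markers was 1.63 to 2.95 CPM against 9.75 to 1225 CPM, most of it Ltf in the Ba/Sq tumors. Lower were 8 of the 10 suprabasal genes tested and 4 of the 5 neutrophil genes tested, and Ly6g had no count in BURP-19NE. The sum of 10 macrophage markers, 274 to 356 CPM, lay within the Ba/Sq range of 28.1 to 1077 CPM. Of the 7 mast cell genes tested, 4 were higher and 1 was lower in BURP-19NE, with a median log2 difference of 2.44, and 1 of 8 fibroblast genes was higher. The part of these markers in the result was not tested.

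**Figure D2:**
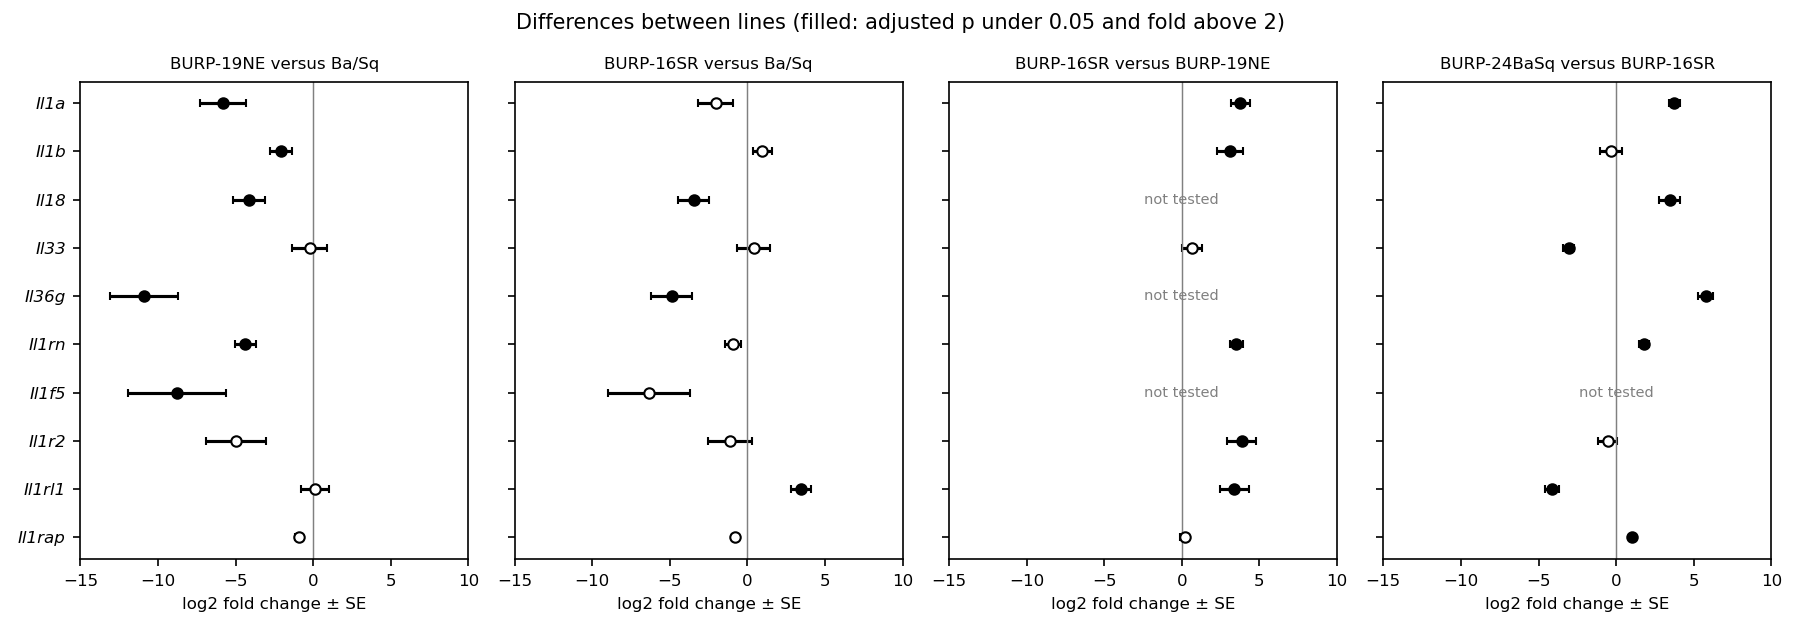
Log2 fold change with its standard error for each gene in 4 comparisons, from edgeR's quasi-likelihood test, with filled points for genes called and "not tested" for genes that the filter on low counts removed. In the first panel the 6 called genes lie left of 0, and in the second only Il1rl1 is called to the right. Points of genes with 0 counts in 1 group depend on the prior count, and their bounds are in the text.

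The second comparison set the stroma-rich line against the same Ba/Sq tumors, which serve in both comparisons. In BURP-16SR, Il1rl1 was higher and Il18 and Il36g were lower, so that 3 of the 10 genes were called where 19.2% of 21028 genes were. Il1rl1 rose by 3.46 on the log2 scale (SE 0.65, adjusted p = 0.000497), from a mean of 2.08 ± 2.04 CPM (SD, n = 18) to 22.4 ± 11.6 CPM (SD, n = 3), with no overlap. It was called under each of the 34 alternatives run, limma-voom with a random effect of the line included. Il18 fell by 3.48 (SE 0.996, adjusted p = 0.0139) and Il36g by 4.89 (SE 1.33, adjusted p = 0.0104). Both calls were lost with the line as a random effect and without BURP-16SR P5. That of Il18 was also lost without C73-M10 and that of Il36g without C74-MNT. Il1rap was 0.80 lower on the log2 scale (SE 0.23, adjusted p = 0.0138), under the 2-fold required, with all tumors apart. Il1f5, with 1 count in the 3 tumors, was 107-fold lower in mean level with a 95% counting interval from 19.3 to 4239, and its adjusted p was 0.0816. The Ba/Sq mean rests on few tumors here too, and each BURP-17BaSq tumor had at most 3 counts. Il1a, Il1b, Il1rn, Il1r2 and Il33 did not pass the test. Of the marker genes tested, all 8 basal and squamous and 8 of the 10 suprabasal ones were lower in BURP-16SR, and 4 of 8 fibroblast and 3 of 6 endothelial ones were higher. The suprabasal sum was 3.56 to 13.3 CPM there, and the part of these cells in the result was not tested.

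Within BURP-16SR, the tumor P5 had the lowest Il1b, at 3.36 CPM against 30.3 and 31.2 CPM. Its label stands for passage 5, and the labels of C73-M10 and C74-MNT give no passage. Passage and spread between tumors therefore cannot be told apart here. P5 also had the highest Il1rl1, at 33.1 CPM against 10.1 CPM in C73-M10 and 23.9 CPM in C74-MNT. Its summed level of 8 fibroblast markers, led by Col1a1, Col1a2 and Col3a1, was 585 CPM, against 7509 CPM in C73-M10 and 20076 CPM in C74-MNT. The sum of macrophage markers was 176 CPM in P5, 875 CPM in C73-M10 and 691 CPM in C74-MNT. The sum of 8 mast cell markers, among them Cpa3, Mcpt4 and Cma1, was 26.6, 34.3 and 46.5 CPM in P5, C73-M10 and C74-MNT, against 2.83 to 35.3 CPM in the Ba/Sq tumors, and 4 of the 6 mast cell genes tested were higher in BURP-16SR. Il1rl1 was thus highest in the tumor where these 3 sums were lowest, and with 3 tumors no relation was tested. Over the 18 Ba/Sq tumors Il1rl1 had a positive r with the markers of these 3 cell types, given below. In BURP-19NE the tumor C80-M3 had the lowest Il1rl1, at 0.158 CPM, and also the lowest of these 3 sums. Neutrophil and T cell sums were lowest in P5 too (9.65 and 10.4 CPM). The endothelial sum was lowest in C73-M10, at 177 CPM against 197 CPM in P5.

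BURP-16SR and BURP-19NE were also set against each other. Higher in BURP-16SR were 5 genes (Il1a, Il1b, Il1rn, Il1r2 and Il1rl1) of the 7 tested, where 14.8% of 17556 genes were higher, and 0 were lower. Il18, Il36g and Il1f5 were too low in both lines to be tested. Il1rn differed by 3.50 on the log2 scale (SE 0.41, adjusted p = 0.00207) and Il1a by 3.78 (SE 0.61, adjusted p = 0.00544), both called whichever tumor was left out. Il1r2 differed by 3.87 (SE 0.95, adjusted p = 0.0219), Il1rl1 by 3.37 (SE 0.94, adjusted p = 0.0329) and Il1b by 3.08 (SE 0.84, adjusted p = 0.0312). The calls of these 3 genes depended on single tumors (that of Il1b on all but BURP-16SR P5), and between 2 and 5 genes were called with 1 tumor left out. Without BURP-16SR C73-M10 or without BURP-19NE C80-M1 there were 2, and without BURP-19NE C80-M3, BURP-19NE C80-M30 or BURP-16SR C74-MNT there were 3.

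BURP-24BaSq and BURP-16SR are the lines that the study treated with cisplatin, and the labels do not say whether any sequenced tumor came from a treated mouse. Of the 9 genes tested, 7 were called, where 29.0% of 18283 genes were. Higher in BURP-24BaSq were Il36g by 5.77 on the log2 scale (SE 0.50, adjusted p = 0.000336), Il1a by 3.75 (SE 0.35, adjusted p = 0.000431), Il18 by 3.44 (SE 0.67, adjusted p = 0.00775), Il1rn by 1.78 (SE 0.33, adjusted p = 0.00607) and Il1rap by 1.01 (SE 0.20, adjusted p = 0.00772). Lower were both genes of the IL-33 axis, Il1rl1 by a log2 difference of -4.14 (SE 0.46, adjusted p = 0.000828) and Il33 by -3.06 (SE 0.36, adjusted p = 0.00101). The call of Il1rap was lost without BURP-16SR C73-M10 or BURP-24BaSq C81-M30, and the other 6 held with each tumor left out. The tumors of the lines did not overlap in 8 of the 10 genes. How many of all genes were apart in this way was not counted, so nothing particular to the 10 is read from it. Of the marker genes tested, all 8 basal and squamous and 8 of 10 suprabasal ones were higher in BURP-24BaSq, and 6 of 6 endothelial, 4 of 6 mast cell and 3 of 8 fibroblast ones were lower. Their part in these differences was not tested. Il1b, at 15.1 to 22.1 CPM in BURP-24BaSq and 3.36 to 31.2 CPM in BURP-16SR, did not pass the test.

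Among the 6 Ba/Sq lines, the question was whether a gene differed between lines beyond the spread of tumors of a line. A single test over the 6 lines called Il1a (F = 10.5, adjusted p = 0.00172), Il1rn (F = 9.80, adjusted p = 0.00219), Il1r2 (F = 7.35, adjusted p = 0.00565), Il33 (F = 6.01, adjusted p = 0.0108) and Il1f5 (F = 4.26, adjusted p = 0.0306). That is 5 of 10, and 50.5% of the 20523 genes tested were called in the same way. The calls of Il1a, Il1rn and Il33 held under each of the 25 alternatives run. That of Il1r2 was lost without C102-M30 (adjusted p = 0.857) and without both doubtful libraries (adjusted p = 0.467). That of Il1f5 was lost in 8 settings that left out 1 tumor of BURP-12BaSq, BURP-17BaSq or BURP-21BaSq. With C102-M1 counted as a BURP-21BaSq tumor, 8 of the 10 genes were called. The share of all genes called in that setting is not given, so nothing about the 10 is read from this rise.

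Each line was then compared with the other 5. In BURP-24BaSq, Il1a was higher by 2.53 on the log2 scale (SE 0.62, adjusted p = 0.0359) and was the only one of the 10 called, where 1.65% of all genes were. Il1a averaged 40.96 ± 3.11 CPM (SD, n = 3) there and 7.05 CPM in the other lines, without overlap, but the call was lost without any 1 of the BURP-24BaSq tumors, with adjusted p from 0.122 to 0.202, and without BURP-12BaSq C47-M3 or BURP-21BaSq P4.2. In BURP-18BaSq, Il1a fell by 3.67 (SE 1.05, adjusted p = 0.0232) and Il1rn by 1.41 (SE 0.47, adjusted p = 0.0452), 2 genes where 10.1% of all genes were called. Neither was called without C148-M3 or without C149-M3 of that line, and the call of Il1rn was lost in 12 of 24 alternatives. In BURP-25BaSq, Il1r2 alone was called (4.19 higher on the log2 scale, SE 0.63, adjusted p = 0.00328), where 0.273% of all genes were. That value came from C102-M30: without it the difference was 0.43 (adjusted p = 0.930), and without both doubtful libraries it was -1.38 (adjusted p = 0.625), with 1 tumor of the line left, which was assumed to vary like those of the other lines. In BURP-12BaSq, BURP-17BaSq and BURP-21BaSq edgeR called 0 of the 10, where 4.59%, 1.07% and 0.0195% of all genes were called. At an unadjusted p under 0.05 these lines had 1, 1 and 0 of the 10 genes, where 5126, 3124 and 2213 of the 20523 genes tested reached it (15.2% and 10.8% for the last 2 lines). DESeq2 called 1 (Il33), 1 (Il1f5) and 0, where it called 2169, 599 and 360 of the 20523 genes.

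The sexes were compared over 9 male and 9 female Ba/Sq tumors from 3 lines each. Il1f5 was the 1 gene called, lower in male lines by a log2 difference of -3.63 (SE 0.97, adjusted p = 0.0350), where 1.22% of 17922 genes were lower. It averaged 0.415 ± 0.639 CPM (SD, n = 9) in male and 5.09 ± 5.10 CPM (SD, n = 9) in female tumors, and the tumors overlapped. The tumors of a line are not independent of each other, and with the line as a random effect (adjusted p = 0.642), with counts summed per line (adjusted p = 0.571) or without C102-M30 and C102-M1 (adjusted p = 0.0571) the gene was not called. The call was also lost without any 1 of 5 lines and in 10 of the 18 settings that left out 1 tumor. Il1a (6.70 ± 5.69 against 18.7 ± 17.2 CPM, SD, n = 9 each) and Il1rn (36.4 ± 26.2 against 62.4 ± 23.3 CPM) had lower means in male tumors without passing the test (adjusted p = 0.195 and 0.167).

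The rest of the pathway was followed in 5 lists of genes, whose counts stand beside 24.3% of all genes called in BURP-19NE and 19.2% in BURP-16SR. In BURP-19NE against Ba/Sq, 3150 of 20995 genes were lower. Of the 18 known targets of IL-1 family signalling on the list, 16 were tested, 12 were lower and 0 were higher. Its median log2 difference was -5.08, or -3.80 with 3 genes at their bounds. The neutrophil attractant Cxcl5 fell from 17.8 ± 13.8 CPM (SD, n = 18) to 0.0454 ± 0.0786 CPM (SD, n = 3), S100a9, a calprotectin subunit, fell by 6.75 on the log2 scale, and Csf3, which encodes G-CSF, was at 0 counts and at least 3.75-fold lower. Ptgs2, another member of the list, was not called and averaged 295 CPM in BURP-19NE against 89.8 CPM. In BURP-16SR 3 of 17 targets were called, Csf2 (GM-CSF) higher by 6.43, Il6 higher by 2.54 and Il23a lower (-4.25), with a median over the list of -0.21, and this share of the list was near that of all genes.

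**Figure D3:**
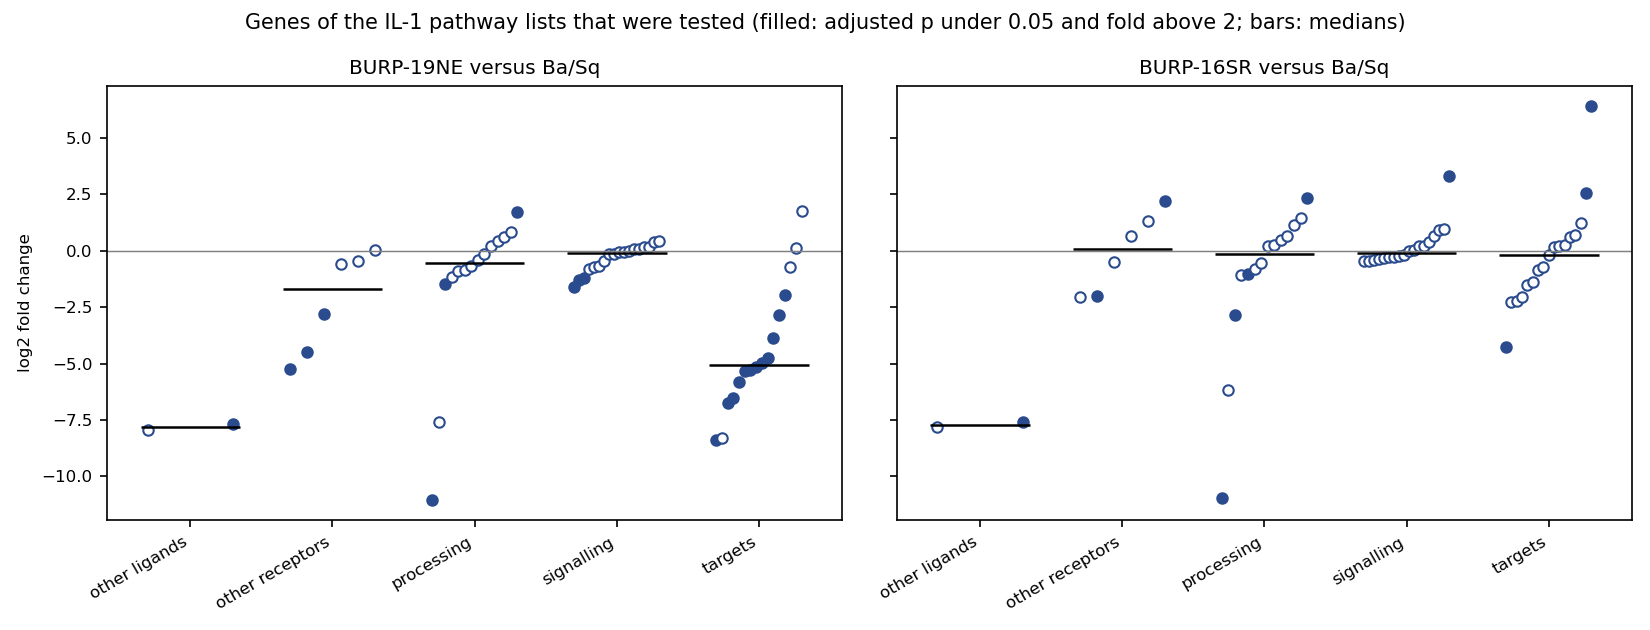
Log2 fold change of every tested gene of the 5 pathway lists in BURP-19NE and in BURP-16SR against the same 18 Ba/Sq tumors, with filled points for genes called and bars for the median of a list. In BURP-19NE the median of the targets is -5.08 and that of the signalling genes -0.10, and in BURP-16SR the median of the targets is -0.21.

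Receptors outside the 10 genes differed too. Il1rl2, the gene of the IL-36 receptor, averaged 68.6 ± 29.5 CPM (SD, n = 18) in Ba/Sq tumors. The mean was 16.3 ± 5.73 CPM (n = 3) in BURP-16SR, against 2.97 ± 1.75 CPM (n = 3) for BURP-19NE, and the gene was called lower in both lines. In BURP-19NE, Il18r1 and Il18rap, the chains of the IL-18 receptor, were lower by 5.26 and 2.79 on the log2 scale, so that 3 of 6 receptor genes tested were lower and 0 higher. In BURP-16SR, Il18rap was 2.21 higher and Il1rl2 was the 1 receptor gene lower. Il1r1, the signalling receptor for IL-1, was at 43.6, 65.8 and 44.6 CPM on average in Ba/Sq, BURP-16SR and BURP-19NE tumors and did not pass the test in either comparison. Of the other ligands, Il36a and Il36b had no count in BURP-16SR or BURP-19NE. Il36b was at least 5.10-fold and 8.21-fold lower there, and Il36a at least 5.98-fold and 9.63-fold. In each case 1 of these 2 tested genes was called.

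The list of processing genes, 16 caspases, inflammasome sensors, gasdermins and proteases, had 14 genes tested. In BURP-16SR, Casp1, the caspase that cuts IL-1β and IL-18, was lower by 2.87 on the log2 scale (3.72 ± 1.995 against 28.7 ± 9.64 CPM) and Nlrp3, the sensor upstream of it, was higher by 2.34 (16.3 ± 6.82 against 3.41 ± 1.80 CPM). Gsdmc had no count there and was at least 54.1-fold lower, and with Gsdme, lower by 1.02, 3 genes were lower and 1 was higher. In BURP-19NE, 2 were lower (Gsdmc, at least 87.0-fold, and Pycard, by 1.48) and 1 was higher (Aim2, by 1.74). Among the 18 signalling genes, Irak3, which restrains IL-1 signalling, was the 1 gene called in BURP-16SR, higher by 3.32 (33.7 ± 5.15 against 3.53 ± 3.08 CPM). In BURP-19NE, Nfkbia, Myd88 and Irak2 were lower by 1.59, 1.29 and 1.22 on the log2 scale, and 0 were higher. The share of genes called in BURP-19NE was below the 24.3% of all genes in both the processing and the signalling list. The signalling median was -0.10, against -0.14 for all genes tested. In BURP-18BaSq, where Il1a and Il1rn were low, 4 of 16 targets were called against the other Ba/Sq lines, beside 10.1% of all genes, Tslp (4.85), Ptgs2 (2.46) and Icam1 higher and Csf3 (-2.66) lower. In the comparison of the sexes 0 genes of the 5 lists were called by edgeR.

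Across the 18 Ba/Sq tumors, some of the 10 genes varied together on the log2 CPM scale. These tumors share 6 lines, so correlations are given as descriptions without a p, with Spearman's rho and with Pearson's r without the 2 tumors farthest from the median of the first measure. Il36g and Il1f5 had r = 0.76 (rho = 0.77, r = 0.73 without 2 tumors). Il1a and Il36g had r = 0.64 (rho = 0.79, 0.69), and Il1b and Il1rap had r = 0.69 (rho = 0.64, 0.58). Il33 had negative values with some of the genes: with Il36g r was -0.67 (rho = -0.55, -0.69) and with Il1a it was -0.58 (rho = -0.63, -0.59), while with Il1r2 it was 0.34 and with Il1rl1 -0.08, both with the opposite sign without 2 tumors. Il1a and Il1rn had r = 0.63, which fell to 0.35 without 2 tumors.

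The genes whose pattern was most like that of Il36g were 2610528A11Rik, Il36b and Fgfr3, each with r = 0.94 among 14916 genes. For Il1f5 they were Pla2g4d, 2310046K23Rik and Lce1d (r = 0.95, 0.93 and 0.93). For Il1b they were Acap1, Csf3r and Clec4e (r = 0.91, 0.90 and 0.89), of which Csf3r is in the list of neutrophil markers. Il33 was most like Fa2h (r = 0.93), Il1a most like AW549877 (r = 0.92) and Il1rn most like Rell1 (r = 0.91). Il18 was most like H60c (r = 0.87), Il1rap most like Slpi (r = 0.85) and Il1rl1 most like Prkcq (r = 0.84). For Il1r2 the first was Slc16a12 (r = 0.88), which fell to 0.54 without C102-M1 and C102-M30, and for the second, Lars2, r fell from 0.86 to -0.06.

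Levels of other cells' markers moved with several genes over the same 18 tumors. Il36g varied with the mean log2 CPM of the 10 suprabasal markers (r = 0.83, rho = 0.68, r = 0.71 without 2 tumors), as did Il1f5 (r = 0.64, rho = 0.65, 0.60) and Il18 (r = 0.66, rho = 0.54, 0.48). Il1b varied with the 5 neutrophil markers measured (r = 0.74, rho = 0.72, 0.64) and with the 10 macrophage markers (r = 0.64, rho = 0.60, 0.66). Its values were of like size with the T cell markers (r = 0.64, rho = 0.64, 0.58), the endothelial markers (r = 0.60, rho = 0.61, 0.65) and, negative, with the urothelial markers (r = -0.74, rho = -0.69, -0.70). Il36g and Il1f5 were negative with the urothelial markers as well (r = -0.58 and -0.63). The defining neutrophil marker Ly6g was at 0 counts in 6 of the 18 tumors and at most 0.7 CPM. Il33 varied with the 6 urothelial markers measured (r = 0.68, rho = 0.61, 0.64), and the sum of all 8 on the list was 285 and 405 CPM in C102-M3 and C102-M30 and 47.9 CPM in C102-M1. Between Il33 and the 8 fibroblast or 6 endothelial markers r was 0.19 and 0.09. Il1rl1 had positive values with the fibroblast markers (r = 0.45, rho = 0.50, 0.29), the 6 mast cell markers measured (r = 0.36, rho = 0.44, 0.14) and the macrophage markers (r = 0.34, rho = 0.37, 0.09). The part of these cells in the levels was not tested.

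**Figure D4:**
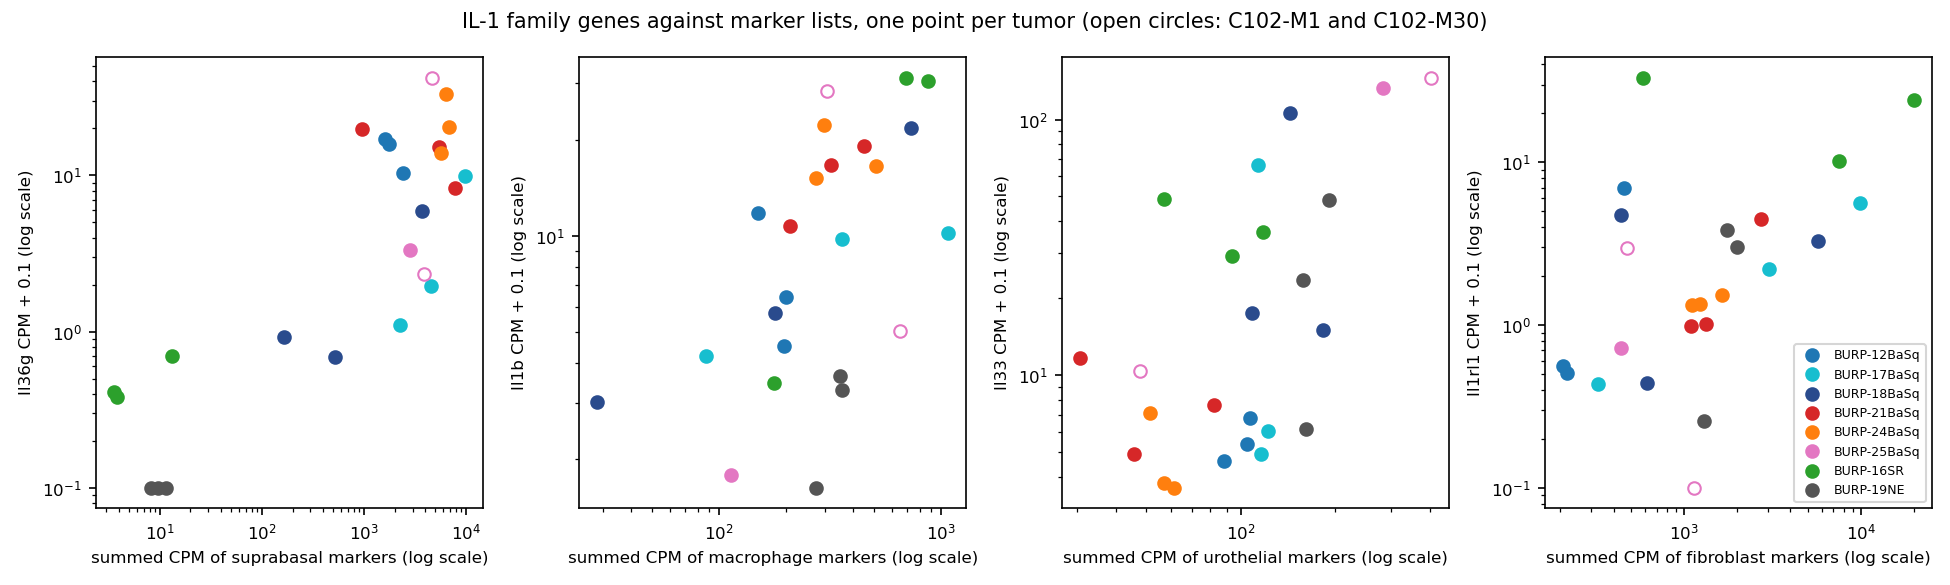
Level of 4 genes (CPM plus 0.1) against the summed CPM of a marker list, both on log scales, with 1 point per tumor, a color per line and open circles for C102-M1 and C102-M30. Il36g reaches 19.7 CPM at a suprabasal sum of 952 CPM (BURP-21BaSq P5) and 1.87 CPM at one of 4514 CPM (BURP-17BaSq P4), Il33 is highest in the 2 tumors with the highest urothelial sum, and for Il1rl1 the 3 BURP-16SR tumors lie above the others over fibroblast sums from 585 to 20076 CPM.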

How the data were processed

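RNA of 24 tumors was sequenced, and the authors deposited 1 table of estimated counts per gene. Per the submitters' processing notes, the tools were CASAVA 1.8.2, STAR 2.6.0a and RSEM 1.3.1 with GRCm38. Of the deposited expected counts, 12.5% were not whole (tolerance 1e-9), and all were rounded. Gene identifiers matched the annotation for 99.6% of genes. The tumor's line came from its label, and the sex of a line from the study's text. The labels name tumors of a line, not separate donors, so p-values measure the spread between these tumors.

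Libraries were scaled by TMM, low genes removed with filterByExpr, and groups compared with edgeR 4.0.16 (quasi-likelihood, two-sided) in R 4.3.3, adjusting p over all genes tested by Benjamini-Hochberg. Alternatives used DESeq2 1.42.0 and limma 3.58.1 (voom, a random effect of the line). The procedure was tested on simulated data. Fold changes against a group without counts were bounded by 3 counts per library. Gene coordinates and overlaps came from GENCODE vM21 (GRCm38) and promoters from RefSeq (GRCm38.p6), which held all 10 genes.

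The 10 genes and all lists were chosen with earlier results of these data known. All 10 genes were named. In each list at most the 3 called genes with the largest change were named. Gsdme, Icam1, Ptgs2, Il1r1 and Il36a were named too, chosen after their values were seen. For likeness, the 3 protein-coding genes with the highest r were taken, for genes with a mean of at least 1 CPM. Within-batch values could not be given, as the labels give no batch.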

Additional observations from a re-analysis of the deposited data

Results flagged for a closer look

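Of 20 groups of 9 male or 9 female Ba/Sq tumors examined for a single distant tumor by Dixon's test, 5 had one. The chance rate of about 1 in 20 holds for independent, normally spread values. These were unlogged CPM of tumors that share lines, so no excess is read from the 5. Among female tumors, Il1r2 was at 185 CPM in BURP-25BaSq C102-M30, and the next highest tumor was at 8.10 CPM. Among male tumors, Il1rn was at 99.0 CPM in BURP-17BaSq P4 with the next at 49.4 CPM, and Il1b was at 21.6 CPM in BURP-18BaSq P4 with the next at 11.7 CPM. In BURP-18BaSq C149-M3, Il18 was at 9.78 CPM with the next male tumor at 3.92 CPM, and Il1f5 was at 1.97 CPM with the next at 0.680 CPM.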

How the results depend on the processing

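No paired analysis was possible because the labels give no replicate numbers. Codes such as M1, M3 and M30 recur in several lines beside different C codes, their meaning is not given, other tumors carry only a passage, and tumors were numbered here in accession order. Of 692 values computed under alternatives for the 31 gene and comparison pairs called, 609 kept call and direction, 82 lost the call and 1 reversed (Il1r2 in BURP-25BaSq, -1.38 without both doubtful libraries, which leaves 1 tumor assumed to vary like the other lines). With the line as a random effect, 1 of the 10 genes was called in BURP-19NE, 1 in BURP-16SR and 0 between the sexes, and with counts summed per line 0 between the sexes. Without both doubtful libraries the count was 0 between the sexes, 1 in BURP-18BaSq and 0 in BURP-25BaSq. With all 24 tumors in 1 fit it was 3 between the sexes, 1 in BURP-21BaSq, 2 in BURP-24BaSq and 2 in BURP-25BaSq. That fit called 1473, 707, 1681 and 647 of 21383 genes in these comparisons. DESeq2 called 1 in BURP-12BaSq, 1 in BURP-17BaSq and 2 in BURP-24BaSq, where it called 2169, 599 and 737 of 20523 genes. Without a filter 1 was called in BURP-18BaSq. The test over 6 lines called 8 with C102-M1 counted as BURP-21BaSq, a setting whose share of all genes is not given. With 1 tumor or line left out, the counts ranged from 4 to 8 in BURP-19NE, 1 to 4 in BURP-16SR, 2 to 5 between these lines, 6 to 8 between BURP-24BaSq and BURP-16SR, 0 to 2 between the sexes, 0 to 2 in BURP-18BaSq, 0 to 1 in BURP-24BaSq, 0 to 1 in BURP-25BaSq and 4 to 7 over the 6 lines. The cause of these shifts was not tested. The fits that left some tumors out also held fewer tumors. Counts over all genes moved by more than 1.5 times in some settings: from 5108 to 2271 in BURP-19NE and from 4029 to 1497 in BURP-16SR with the line as a random effect, from 414 to between 0 and 1473 between the sexes, and, against the other Ba/Sq lines, from 941 to between 208 and 2370 in BURP-12BaSq, 220 to between 54 and 1466 in BURP-17BaSq, 2065 to between 703 and 3413 in BURP-18BaSq, 4 to between 0 and 707 in BURP-21BaSq, 339 to between 77 and 1681 in BURP-24BaSq and 56 to between 9 and 647 in BURP-25BaSq. Depth limits Il1f5, Il36g and Il18 in BURP-16SR and BURP-19NE, where their counts were between 0 and 9 per tumor. It also limits Il1a in BURP-19NE (2 to 7 counts) and in BURP-18BaSq C148-M3 and C149-M3 (4 and 3 counts).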
